A study of Mus musculus with 3 samples.

Results

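Cells rich in mRNA of DNA replication genes were compared with cells rich in mRNA of mitosis genes, inside the same mouse medulloblastomas. They were not limited to tumour cells, and some carried markers of other cell types. The cells were chosen by their own measured counts: a cell entered the S set when it held at least 2 counts of 18 S-phase genes and 0 counts of 12 mitosis genes, and the M set when it held at least 2 counts of the 12 and 0 of the 18. The sets held 430 cells, 241 in the S set and 189 in the M set, of 1981 barcodes kept with at least 200 counts and at most 10% mitochondrial counts, and of 20959 barcodes in all. The 30 selecting genes chose the cells, so their levels are a description, and they were left out of the comparison.

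Single-cell mRNA was counted by Drop-seq, a 3′ method that tags each molecule with a unique identifier, in 3 G-Smo tumours, each from a separate mouse. In these C57BL/6 mice the transgene hGFAP-Cre, driven by a human glial promoter that is active in neural stem cells and their progeny, turns on SmoM2, a constitutively active mutant of the Hedgehog signal transducer Smoothened. Every mouse had received palbociclib, an inhibitor of the kinases CDK4 and CDK6, in a nanoparticle form named POx-palbo, injected into the abdomen at 25 mg/kg in 5 daily doses begun on postnatal day 10, and tumours were taken on day 16. Untreated tumours are not analysed here, so the values describe cells of treated tumours and not an effect of the drug.

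Dividing cells pass through S phase, in which the MCM helicase opens DNA and PCNA-bound polymerases copy it, and then through mitosis, in which kinetochores tie chromosomes to a spindle of microtubules and a contractile ring parts the daughter cells. CDK4 and CDK6, with cyclin D, release E2F factors from the RB protein, and E2F switches on the genes of S phase; genes of mitosis come on later, many through a promoter element called CHR that MuvB complexes bind. In the young cerebellum Hedgehog signalling drives granule neuron progenitors through this cycle, and Smoothened activation keeps tumour cells in it.

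The promoters of the 2 selecting lists differed in the CHR and E2F letters they held, and both often held the letters CCAAT, which the factor NF-Y binds. Promoters here are RefSeq windows of the mouse build GRCm38.p6, from 250 bases before to 50 after each start. They were searched on both strands for the CHR letters TTTGAA or TTCGAA and for the E2F letters TTTGGCGC, TTTCCCGC, TTTGCCGC or TTTCGCGC, and for CCAAT; no motif contains another. Of all 32851 promoters, 19.2% held the CHR letters, 2.26% the E2F letters and 37.4% CCAAT. Of 13 promoters of the 12 mitosis selecting genes, 76.9% held CHR, 7.69% E2F and 92.3% CCAAT. Of 17 promoters of 15 matched S-phase selecting genes, 17.6% held CHR, 52.9% E2F and 82.4% CCAAT. A match is a run of letters and not a shown site.

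The promoters of 3 genes higher in the M set, none of them a selecting gene, are printed with the CHR letters in capitals, as examples chosen for holding those letters. Of the other called genes, Arl6ip1 held no CHR letters in its window, and Arhgap11a held both CHR and E2F letters. Casc5, which RefSeq names Knl1, is shown at chr2:119046869-119047168 on the plus strand, with its match at base 32 when the start is base 1. Kif20b is at chr19:34922108-34922407 on the plus strand, with adjoining matches at bases 8 and 14. Ckap2l is at chr2:129297163-129297462 on the minus strand, with matches at -30, where the letters stand on the other strand, and at 42. Each window covers the gene's upstream flank and the first bases of its transcript.
Casc5: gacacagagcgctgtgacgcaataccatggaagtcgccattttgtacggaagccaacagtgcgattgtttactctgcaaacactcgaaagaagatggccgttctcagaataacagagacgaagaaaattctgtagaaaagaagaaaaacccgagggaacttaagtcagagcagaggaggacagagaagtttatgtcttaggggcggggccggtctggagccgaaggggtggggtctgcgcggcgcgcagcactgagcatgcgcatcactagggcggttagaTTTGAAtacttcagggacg
Kif20b: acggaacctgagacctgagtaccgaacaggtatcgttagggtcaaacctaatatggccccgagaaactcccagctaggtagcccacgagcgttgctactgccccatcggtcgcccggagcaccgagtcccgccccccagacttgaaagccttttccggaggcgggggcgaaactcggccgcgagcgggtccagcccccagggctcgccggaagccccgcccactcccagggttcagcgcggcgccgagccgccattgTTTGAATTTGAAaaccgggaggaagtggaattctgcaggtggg
Ckap2l: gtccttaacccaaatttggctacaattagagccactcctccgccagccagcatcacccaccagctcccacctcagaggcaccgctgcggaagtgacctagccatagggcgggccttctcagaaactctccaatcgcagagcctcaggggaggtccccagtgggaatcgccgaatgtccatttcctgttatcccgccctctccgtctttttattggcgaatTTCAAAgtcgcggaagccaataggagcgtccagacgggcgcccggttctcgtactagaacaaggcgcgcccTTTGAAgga

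Replication genes with more counts in the S set, Atad5 and Cdca7, are printed with the E2F letters in capitals, as examples of those letters; they did not pass the test and were chosen after their values and matches were seen. Chaf1a, another such gene, held none of the E2F letters in its window. Atad5 is at chr11:80089150-80089449 on the plus strand, with its match at base 23 on the other strand. Cdca7 is at chr2:72475969-72476268 on the plus strand, with its match at -71, also on the other strand.
Atad5: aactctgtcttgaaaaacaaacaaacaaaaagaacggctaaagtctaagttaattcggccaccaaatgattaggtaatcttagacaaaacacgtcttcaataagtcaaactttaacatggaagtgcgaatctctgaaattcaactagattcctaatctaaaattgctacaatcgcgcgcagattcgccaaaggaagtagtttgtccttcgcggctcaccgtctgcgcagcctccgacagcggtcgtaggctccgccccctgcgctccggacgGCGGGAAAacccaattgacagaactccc
Cdca7: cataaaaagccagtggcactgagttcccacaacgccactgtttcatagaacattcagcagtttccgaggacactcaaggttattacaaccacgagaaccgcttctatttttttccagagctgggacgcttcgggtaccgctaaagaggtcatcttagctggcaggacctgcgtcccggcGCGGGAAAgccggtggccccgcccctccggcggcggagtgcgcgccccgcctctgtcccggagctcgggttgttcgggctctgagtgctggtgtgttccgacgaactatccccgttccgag

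The balance of the sets differed between tumours. Tumour 1 held 153 S-set and 55 M-set cells, which were 15.9% (exact 95% binomial interval 13.6 to 18.4) and 5.71% (4.33 to 7.37) of its 963 kept barcodes. Tumour 3 held 86 and 115 cells, or 9.3% (7.5 to 11.4) and 12.4% (10.4 to 14.7) of 925. Tumour 2 held 2 and 19 cells, or 2.15% (0.262 to 7.55) and 20.4% (12.8 to 30.1) of 93. The S set was the larger in tumour 1 and the smaller in tumours 2 and 3, and the intervals of the S-set share in tumours 1 and 3 did not overlap. The rule fixes these shares together with depth, so they are not the shares of cells in each phase, and intervals cover counting error only. Tumour 2 gave 148 barcodes of at least 200 counts against 1060 and 1059 in tumours 1 and 3, so calls and list medians are given with and without it. Single genes that were not called are mostly given in tumours 1 and 3, and with 3 tumours as well where the sign differs.

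**Figure D1:**
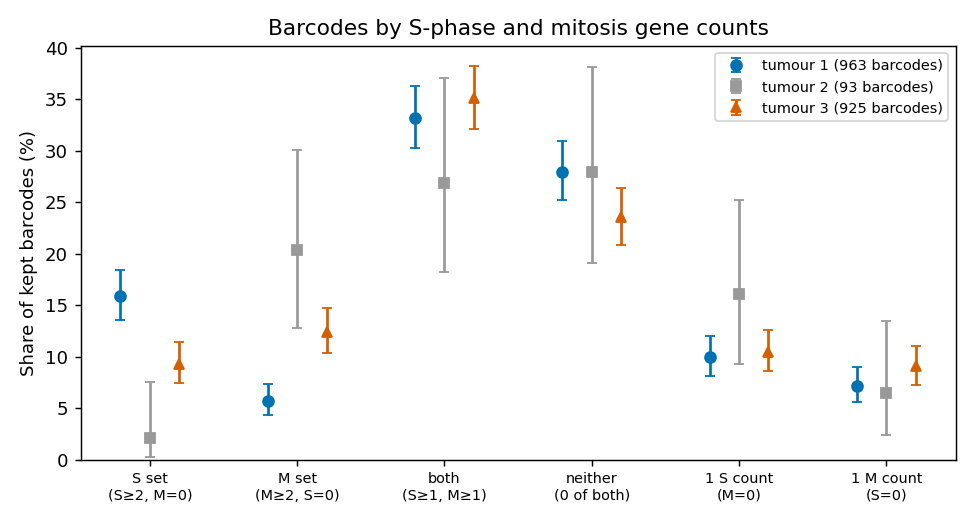
Share of kept barcodes (%, y axis) in each class of barcode (x axis), by tumour, with exact 95% binomial intervals as bars. The S set took 15.9%, 2.15% and 9.3% and the M set 5.71%, 20.4% and 12.4% of kept barcodes in tumours 1, 2 and 3, and the class with counts of both lists was larger, at 26.9% to 35.1%.

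More barcodes held counts of both lists than fell in either set alone. Barcodes with at least 1 S-phase and at least 1 mitosis count numbered 320, 25 and 325 in tumours 1, 2 and 3, and those with 0 of both 270, 26 and 218. Just outside the rule lay 208 barcodes with 1 S-phase count and 159 with 1 mitosis count, and 0 counts of the other list. The median depth of S-set cells was 386, 330 and 335 counts in tumours 1, 2 and 3, and that of M-set cells 333, 270 and 289. S-set cells were deeper in 3 of 3 tumours (exact paired permutation test over tumours, two-sided p = 0.25, the smallest that 3 tumours allow). The test therefore cannot decide, and the rule itself uses counts per cell, so the depths are a description. Mitochondrial genes took 4.98%, 4.09% and 5.11% of S-set counts and 5.00%, 4.18% and 5.48% of M-set counts. No barcode sequence of a kept cell was shared between tumours.

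Among the selecting genes, given as a description, the S set was carried by Nasp and by many genes at low counts. Nasp, a histone chaperone, had counts in 116 of 241 S-set cells, and Hells, a chromatin remodeller, in 62. The helicase subunit gene Mcm6 had 36, 0 and 20 counts in the S sets of tumours 1, 2 and 3, the sliding clamp gene Pcna 25, 0 and 16, and the ribonucleotide reductase gene Rrm2 18, 0 and 10. The S set of tumour 2 rested on 4 counts, 2 of Hells and 1 each of Nasp and Mcm7.

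In the M set the genes found in most cells were Mki67, Top2a and Cenpf, in 46.6%, 46% and 43.4% of cells, beside 48.1% of S-set cells for Nasp. The proliferation antigen gene Mki67 had 57, 12 and 104 counts in tumours 1, 2 and 3 and was found in 88 of 189 M-set cells. Top2a, which untangles DNA, had 48, 17 and 99 counts in 87 cells, and the kinetochore gene Cenpf 59, 11 and 79 in 82 cells. The spindle pole gene Aspm had 7, 0 and 29 counts, and the midzone gene Prc1 14, 7 and 45. Cdk1, the kinase that drives entry into mitosis, had 0, 0 and 16. Mki67 and Top2a mRNA also rises before mitosis, so the M set can hold cells of late S phase and G2; its name follows the gene list and not an observed division.

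Droplets also pick up free RNA. In barcodes of 50 to 99 counts the S-phase selecting genes stood at 29.1, 24.1 and 29.3 per 10000 counts in tumours 1, 2 and 3 and the mitosis selecting genes at 31.2, 37.2 and 42.7. In kept barcodes they stood at 36.8, 24.9 and 34.4 and at 48.2, 64.0 and 62.6. Whether the shallow barcodes hold free RNA or shallow cells was not tested. A barcode with 2 counts of a list can hold counts that are not from its cell, and how many do so was not tested.

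The genes called between the sets were higher in the M set, and 5 of the 6 called without tumour 2 are known for roles in mitosis or cytokinesis. With counts summed per tumour and set and the tumour as a block, 1 of 1956 genes tested was called higher in the M set and 0 in the S set, which is 0.0511% and 0% of genes tested (edgeR quasi-likelihood test, Benjamini-Hochberg adjusted p under 0.05). At an unadjusted p under 0.05, 41 genes were higher in the M set and 7 in the S set. The test shares its estimate of spread across genes, so its p-values and standard errors (SE) do not measure each gene's own spread between tumours. Without tumour 2, where the S set is 2 cells, 6 of 1832 genes were called higher in the M set and 0 in the S set, or 0.328% and 0%, with 54 and 35 at an unadjusted p under 0.05, or 2.95% and 1.91%. DESeq2 called 1 and 0 with 3 tumours, and 0 and 0 in tumours 1 and 3, where 12 and 0 had an unadjusted p under 0.05. The 6 genes were Casc5, Kif20b, Arl6ip1, Smc4, Ckap2l and Arhgap11a. Lists of mitosis genes, described below, held 33 of the 1832 genes tested without tumour 2, of which 4 were called. The condensin and cohesin list held 12, of which 1 was called. Casc5, Kif20b, Ckap2l and Arhgap11a reached the 20 counts needed for the test through the M set alone, so the make-up of the called genes is a description.

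Casc5, the kinetochore scaffold that recruits checkpoint proteins and microtubule-binding complexes, was the gene called with all 3 tumours. It had 4, 0 and 4 counts in the S sets of tumours 1, 2 and 3 and 20, 2 and 28 in the M sets, or 0.581, 0 and 1.11 against 8.74, 2.07 and 6.96 per 10000 counts. Its M-set levels lay above every S-set level, but the 0 of tumour 2 comes from an S-set sum of 656 counts, too few to read such a gene. The counts came from 30 M-set and 6 S-set cells. The log2 difference was 3.21 (SE 0.74, edgeR adjusted p = 0.0269), and 3.27 (SE 0.57, adjusted p = 2.386e-05) without tumour 2. Over 16 alternatives the difference ranged from 1.57 to 3.86 and the adjusted p from 6.346e-06 to 0.9994. It was lost without tumour 1 (adjusted p = 0.9992), without tumour 3 (0.9994), without the tumour block (0.1173), with no low-count filter (0.9972), with at most 5% mitochondrial counts per cell (0.05855) and after every cell was thinned to 200 counts, where the difference was 1.57 (0.9971).

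Kif20b and Ckap2l act on the spindle; they did not pass with 3 tumours and passed without tumour 2. The cytokinesis kinesin gene Kif20b had 6, 0 and 6 counts in the S sets and 23, 3 and 20 in the M sets, or 0.872, 0 and 1.67 against 10, 3.1 and 4.97 per 10000. Its levels did not overlap between the sets, but tumour 2's S-set sum of 656 counts is too small to read a gene at this level. The log2 difference was 2.62 in tumours 1 and 3 (SE 0.54, edgeR adjusted p = 0.001233). With 3 tumours it was 2.58 (adjusted p = 0.2309). Over 16 alternatives to the fit with 3 tumours, which include leaving out tumour 2, the adjusted p went from 0.0005725 to 0.9994. The spindle protein gene Ckap2l had 3, 0 and 2 counts in the S sets and 12, 1 and 11 in the M sets. Its difference was 3.01 in tumours 1 and 3 (SE 0.77, edgeR adjusted p = 0.03543). With 3 tumours it was 2.94 (adjusted p = 0.2574, and 0.005344 to 0.9972 over 11 such alternatives).

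Smc4, the core ATPase of condensin, which compacts chromosomes for mitosis, had 26, 0 and 17 counts in the S sets and 22, 8 and 50 in the M sets. These are 3.78, 0 and 4.73 against 9.61, 8.27 and 12.4 per 10000. They did not overlap, but the 0 comes from a sum of 656 counts, too few to read such a level. Its log2 difference was 1.37 in tumours 1 and 3 (SE 0.35, edgeR adjusted p = 0.03543). With 3 tumours it was 1.43 (adjusted p = 0.9982). Over 16 alternatives to the fit with 3 tumours the adjusted p reached 0.9994 and was lowest, at 0.03543, without tumour 2.

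Arhgap11a, a regulator of the small GTPase RhoA in cytokinesis, had 1, 0 and 1 counts in the S sets and 6, 0 and 14 in the M sets. Summed over tumours this is a 14.5-fold ratio with a 95% counting interval of 3.52 to 128. That interval treats counts as independent, ignores the pairing by tumour and does not cover differences between cells or tumours. Its log2 difference in tumours 1 and 3 was 3.72 (SE 0.98, edgeR adjusted p = 0.04544). With 3 tumours it was 3.60 (adjusted p = 0.2574, and 0.00468 to 0.9997 over 10 alternatives to that fit).

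Arl6ip1 encodes a protein that shapes the endoplasmic reticulum. It had 25, 0 and 15 counts in the S sets and 15, 4 and 67 in the M sets, or 3.63, 0 and 4.18 against 6.55, 4.13 and 16.7 per 10000. The M-set level of tumour 2 lay just below the S-set level of tumour 3, so the groups overlapped. Its log2 difference was 1.47 in tumours 1 and 3 (SE 0.35, edgeR adjusted p = 0.02047) and 1.47 with 3 tumours (adjusted p = 0.9982). Over 16 alternatives to the fit with 3 tumours the adjusted p reached 0.9994 and was lowest, at 0.02047, without tumour 2.

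Casc5, Smc4 and Arl6ip1 were also read in barcodes outside the sets. Casc5 stood at 6.04, 20.9 and 6.52 per 10000 in barcodes with counts of both lists in tumours 1, 2 and 3, and at 0.432, 1.52 and 1.47 in barcodes with 0 of both lists. Smc4 stood at 12.3, 9.83 and 11.7 in the former and 2.38, 7.59 and 4.56 in the latter. Arl6ip1 stood at 4.97, 0 and 3.82 in barcodes with 0 of both lists and 5.01, 14.8 and 8.45 in those with both. Casc5 and Smc4 were higher with counts of both lists than with 0 of both in each tumour, and so was Arl6ip1, by little in tumour 1. These levels are descriptions, and the classes were not tested against each other.

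**Figure D2:**
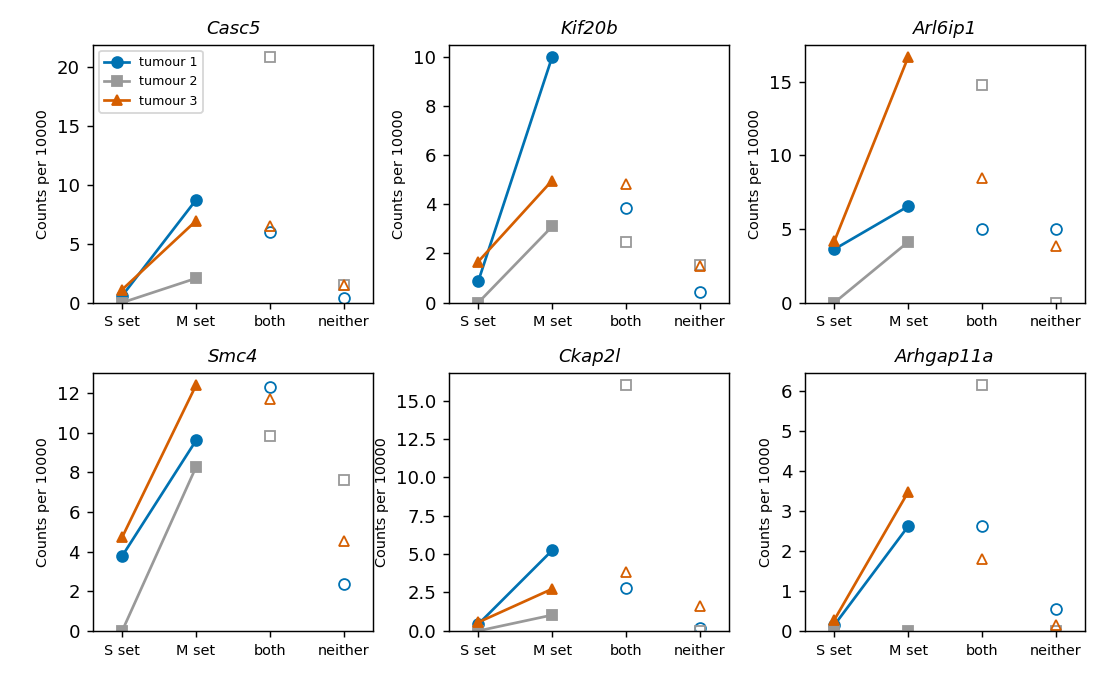
Level (counts per 10000 without the selecting genes, y axis) of the 6 genes called in tumours 1 and 3, by class of barcode (x axis) and tumour; lines join the S set and M set of a tumour, and open symbols mark the other 2 classes. In tumours 1 and 3 each gene was higher in the M set, as for Casc5 with 0.581 and 1.11 against 8.74 and 6.96, and in tumour 2 Arhgap11a was at 0 in both sets.

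As a group, genes of the mitotic machinery outside the selecting lists had a higher summed level in the M set of each tumour, a description with no test. The 4 lists of mitotic kinases and cyclins, kinetochore, spindle, and cytokinesis genes together stood at 77.9, 76.2 and 85.4 per 10000 counts in the S sets of tumours 1, 2 and 3 and at 184, 124 and 199 in the M sets, a ratio of 2.36, 1.63 and 2.32, where the tumour 2 value rests on 5 S-set counts. Of 119 genes, 34 had the 20 counts needed for the test. With 3 tumours 1 was called higher in the M set, 0 in the S set and 33 did not pass; in tumours 1 and 3, 4 of 33 were called higher and 0 lower. The median log2 difference of M over S was 1.65 with 3 tumours and 1.67 in tumours 1 and 3, beside 0.04 and -0.02 over all genes tested. In both tumours 1 and 3 the level was higher in the M set for 30 of 34, or 88.2%, against 23.8% of all genes tested, and higher in the S set for 1, or 2.94%, against 25.7%. Genes below 20 counts are outside these counts, and a gene could pass that minimum through 1 set alone. Among called genes, Casc5, with 8 S-set and 50 M-set counts, Kif20b, with 12 and 46, Ckap2l, with 5 and 24, and Arhgap11a, with 2 and 20, did so through the M set. So did uncalled genes such as Cdca2, with 3 and 21, and Sgol2, with 7 and 29. The share of tested genes and the medians are therefore descriptions and no support for the group difference. The summed levels cover all 119 genes and do not rest on that minimum, but they are descriptions too. The lists were chosen with earlier results of these data known. By the rule, the S set holds 0 counts of the 12 mitosis selecting genes, so its level of related genes is not independent of the choice of cells.

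Shallow barcodes held these mRNAs too. In barcodes of 50 to 99 counts the 4 lists stood at 128, 101 and 135 per 10000 in tumours 1, 2 and 3, above the S sets and below the M sets. Barcodes with 0 of both selecting lists stood at 64.5, 50.1 and 68.9, and those with both at 176, 232 and 201. The S set thus lay close to the barcodes without any selecting count.

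Mitotic kinases, cyclins and checkpoint genes took 10.9, 0 and 9.74 per 10000 in the S sets and 31.0, 24.8 and 33.6 in the M sets. The groups did not overlap, but the 0 of tumour 2 comes from an S-set sum of 656 counts, too few to read such a level. Of 30 genes 4 were tested and 0 called. The ubiquitin ligase gene G2e3 had 11, 0 and 8 counts in the S sets and 18, 7 and 24 in the M sets. Its log2 difference was 1.87 in tumours 1 and 3 (edgeR adjusted p = 0.0673). With 3 tumours it was 1.92 (adjusted p = 0.9413, and 0.04378 to 0.9994 over the alternatives to that fit). The mitotic kinase gene Pbk had 3, 0 and 4 counts against 7, 1 and 8 (1.76, adjusted p = 0.9371). Bub3, which carries checkpoint proteins to kinetochores, had 7, 0 and 4 counts against 3, 0 and 9 (0.71, adjusted p = 0.9952). Mastl and Mybl2 were at 0 counts in both sets.

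Kinetochore and centromere genes took 22.7, 15.2 and 25.3 per 10000 in the S sets and 43.3, 22.7 and 53 in the M sets. Each tumour was higher in its M set, but the M set of tumour 2 lay at or below the S sets of tumours 1 and 3. Of 34 genes 11 were tested and Casc5 alone was called. Sgol2, which guards cohesin at centromeres, had 3, 0 and 4 counts in the S sets and 7, 2 and 20 in the M sets (log2 difference 2.39 in tumours 1 and 3, edgeR adjusted p = 0.1278). The centromeric histone gene Cenpa had 3, 0 and 1 counts against 8, 0 and 8 (2.84, adjusted p = 0.2982), and Cenpc1, which binds that histone, 10, 0 and 4 against 9, 1 and 20 (1.74, adjusted p = 0.3293). Hjurp, the chaperone that loads Cenpa, had 30, 0 and 14 counts against 10, 0 and 31, with a difference of 0.53 (adjusted p = 0.9952). Its level was 4.36 and 4.37 per 10000 in the 2 sets of tumour 1 and 3.9 and 7.71 in tumour 3.

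Spindle genes took 34.0, 61.0 and 37.0 per 10000 in the S sets and 78.6, 48.6 and 76.8 in the M sets. Tumours 1 and 3 were higher in the M set, and tumour 2, with 2 S-set cells, was not. Of 39 genes 11 were tested, with Kif20b and Ckap2l called without tumour 2. The microtubule polymerase gene Ckap5 had 10, 0 and 11 counts in the S sets and 15, 3 and 30 in the M sets (log2 difference 1.68 in tumours 1 and 3, edgeR adjusted p = 0.1523). Ckap2, a spindle protein gene, had 1, 0 and 2 counts against 5, 2 and 12 (2.91, adjusted p = 0.3293), Kif15, a spindle motor gene, 5, 0 and 4 against 7, 2 and 15 (1.87, adjusted p = 0.5102), and Tacc3, which steadies spindle fibres, 3, 0 and 6 against 10, 2 and 9 (1.75, adjusted p = 0.6749). The tubulin genes Tubb5 and Tuba1b, which are read in cells of any phase and share sequence with related tubulins, differed by 0.30 and 0.41 (adjusted p = 0.9952 each).

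Genes of the chromosomal passenger complex and of cytokinesis took 10.3, 0 and 13.4 per 10000 in the S sets and 31.0, 27.9 and 35.3 in the M sets. The groups did not overlap, but the 0 of tumour 2 again comes from 656 counts, too few to read such a level. Of 16 genes 8 were tested, and Arhgap11a was called without tumour 2. Cdca2, which directs a phosphatase to chromosomes, had 1, 0 and 2 counts against 7, 1 and 13 (log2 difference 3.23 in tumours 1 and 3, edgeR adjusted p = 0.06826). The complex's members Incenp, with 7, 0 and 4 counts against 10, 1 and 10, Birc5, with 4, 0 and 1 against 3, 1 and 12, and Cdca8, with 4, 0 and 10 against 8, 8 and 19, differed by 1.67, 2.09 and 1.42 (adjusted p = 0.6749, 0.9371 and 0.7885). The septin gene Sept7, which acts in cytokinesis and in neurons, differed by 0.44 (adjusted p = 0.9952).

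**Figure D3:**
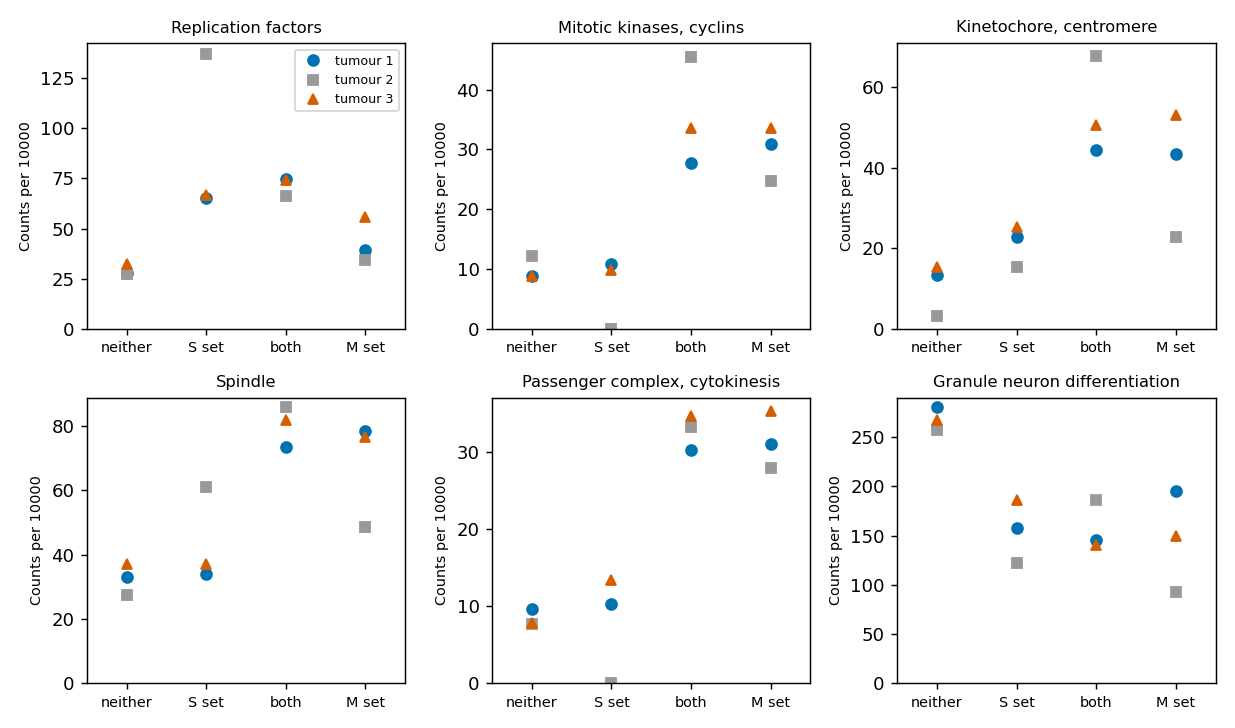
Summed level of 6 gene lists (counts per 10000 without the selecting genes, y axis) in barcodes with 0 of both selecting lists, the S set, barcodes with both and the M set (x axis), by tumour. The mitotic kinase and passenger complex lists stood at 24.8 to 35.3 in the M sets and at 0 to 13.4 in the S sets, while granule neuron genes stood at 257 to 281 in barcodes with 0 of both lists and at 93.0 to 195 in the 2 sets.

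Condensin and cohesin, the ring complexes that fold chromosomes and hold sister chromatids together, took 58.0, 45.7 and 59.0 per 10000 in the S sets and 76.5, 45.5 and 76.3 in the M sets. Of 18 genes 12 were tested, and Smc4 was called without tumour 2. Its condensin partner Smc2 had 81, 0 and 27 counts in the S sets and 41, 4 and 55 in the M sets (log2 difference 0.72 in tumours 1 and 3, edgeR adjusted p = 0.5649). Esco2, which locks cohesin onto copied DNA, had 6, 0 and 2 counts against 5, 2 and 14 (1.87, adjusted p = 0.6957). The cohesin ATPase gene Smc1a had 88, 0 and 65 counts against 31, 9 and 38, a difference of -0.43 (adjusted p = 0.9952).

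Histone and chromatin genes of dividing cells took 116, 244 and 146 per 10000 in the S sets and 141, 129 and 159 in the M sets, with 28 of 42 genes tested and 0 called. The damage-marking histone variant gene H2afx had 4, 0 and 4 counts against 8, 0 and 7 (1.65 in tumours 1 and 3, adjusted p = 0.9744), and the replacement histone gene H3f3b differed by 0.10 (adjusted p = 0.9952). Canonical replication histones lack the poly(A) tail that the method captures, so they are poorly read here.

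Replication factors outside the selecting genes had a higher summed level in the S set of each tumour, a description with no test, and none of the tested genes was called. They took 65.4, 137 and 66.8 per 10000 counts in the S sets of tumours 1, 2 and 3 and 39.3, 34.1 and 55.9 in the M sets. The groups did not overlap, and the S set was higher by 1.66, 4.02 and 1.19 times, where the tumour 2 value rests on 9 counts. Of 57 genes 15 were tested and 0 called, with a median log2 difference of M over S of -0.54 with 3 tumours and -0.69 without tumour 2, beside 0.04 and -0.02 over all genes. In both tumours 1 and 3 the S set was higher for 6 of the 15, or 40.0%, against 25.7% of all genes tested, and the M set for 4, or 26.7%, against 23.8%. Barcodes of 50 to 99 counts stood at 50.9, 44.5 and 51.3 per 10000, above the M sets of tumours 1 and 2.

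Among single replication genes, Atad5, which unloads PCNA after copying, had 29, 0 and 17 counts in the S sets and 0, 1 and 9 in the M sets. The log2 difference of M over S in tumours 1 and 3 was -1.84 (SE 0.61, edgeR adjusted p = 0.2788). Chaf1a, which loads histones onto new DNA, had 17, 0 and 13 counts against 3, 5 and 3 (-1.61, adjusted p = 0.9156), and Cdca7, a cofactor of the remodeller Hells, 20, 0 and 12 against 2, 0 and 5 (-1.51, adjusted p = 0.9156). The clamp loader gene Rfc1 had 30, 0 and 28 counts against 7, 0 and 14 (-0.88, adjusted p = 0.9952), and the DNA ligase gene Lig1 32, 2 and 15 against 6, 1 and 12 (-0.63, adjusted p = 0.9952). Pola1, the catalytic subunit of the priming polymerase, had the opposite sign, with 3, 0 and 2 counts in the S sets and 3, 0 and 13 in the M sets (2.05, adjusted p = 0.9156). Besides Rfc1 and Lig1 these genes were picked after their values were seen.

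Genes of S-phase repair and fork protection took 33.9, 122 and 32.0 per 10000 in the S sets and 30.6, 15.5 and 27.6 in the M sets, with 10 of 25 tested and 0 called. Rif1, which times origin firing, had 36, 0 and 15 counts against 6, 1 and 9 (log2 difference of M over S -0.94 in tumours 1 and 3, edgeR adjusted p = 0.9952). Usp1, a deubiquitinase of PCNA, had 26, 0 and 8 counts against 8, 0 and 21 (0.54, adjusted p = 0.9952). The list's median difference was -0.18 with 3 tumours and -0.16 without tumour 2.

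Both groups stood higher in barcodes with more selecting counts, a description with no test. With 0 mitosis counts, replication factors stood at 27.7, 38.2, 50.4 and 73.5 per 10000 in tumour 1 barcodes of 0, 1, 2 and more than 2 S-phase counts, and at 32.2, 35.3, 42.6 and 83.7 in tumour 3. With 0 S-phase counts, the 4 mitosis lists stood at 64.5, 72.5, 119 and 207 in tumour 1 barcodes of 0, 1, 2 and more than 2 mitosis counts, and at 68.9, 87.5, 127 and 238 in tumour 3. In tumour 2 the mitosis lists stood at 50.1, 115, 155 and 107, the last from 11 barcodes. Barcodes just inside the rule therefore lay between those just outside it and those with more counts in tumours 1 and 3. Median depth was higher too in tumours 1 and 3, from 284.5 and 270 counts at 0 of both to 439 and 355.5 above 2 S-phase counts and 376.5 and 318 above 2 mitosis counts.

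**Figure D4:**
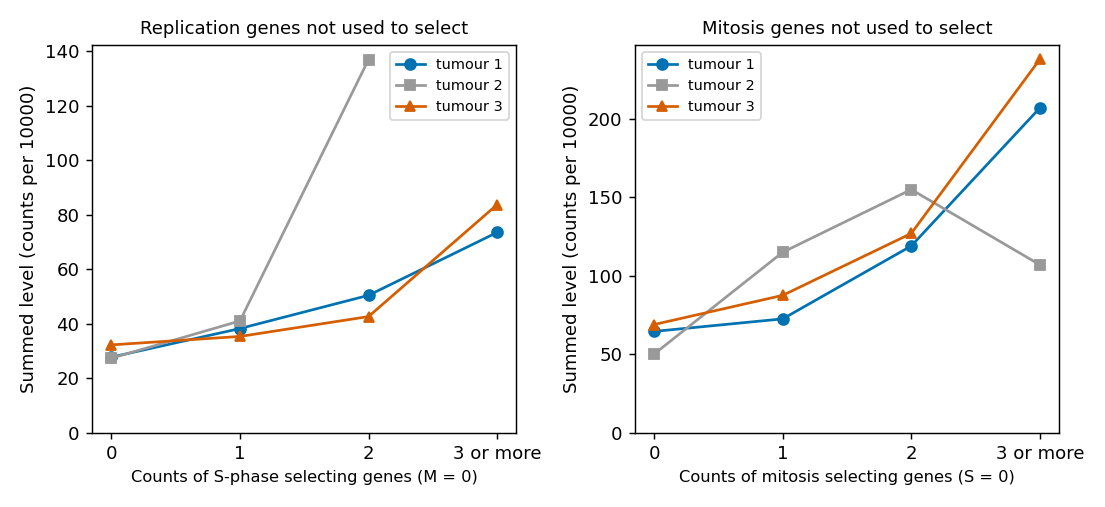
Summed level (counts per 10000, y axis) of replication factors by number of S-phase selecting counts (left) and of the 4 mitosis lists by number of mitosis selecting counts (right), with 0 counts of the other list, by tumour. In tumours 1 and 3 the levels go from 27.7 and 32.2 to 73.5 and 83.7 on the left and from 64.5 and 68.9 to 207 and 238 on the right, and tumour 2 has no barcode above 2 S-phase counts.

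No gene of the pathway that palbociclib acts on passed the test between the sets. Its 26 genes took 59.9, 61.0 and 55.7 per 10000 in the S sets and 62.0, 47.5 and 45.3 in the M sets. Of these 6 were tested and 0 called, with 0 at an unadjusted p under 0.05 with 3 tumours or without tumour 2. The cyclin D genes Ccnd1 and Ccnd2 encode the partners of both kinases. Ccnd1 stood at 15.8, 0 and 10.9 per 10000 in the S sets and 14.4, 10.3 and 11.2 in the M sets, with a log2 difference of 0.17 with 3 tumours (SE 0.65, edgeR adjusted p = 0.9982) and -0.05 in tumours 1 and 3 (SE 0.28, adjusted p = 0.9952). Ccnd2 stood at 19.8, 61 and 25.9 against 19.2, 9.3 and 19.1 (-0.24, SE 0.23, adjusted p = 0.9952). These levels overlapped between the sets.

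Cdk4 stood at 5.09, 0 and 5.29 per 10000 in the S sets and 5.68, 2.07 and 3.73 in the M sets, a log2 difference of -0.16 in tumours 1 and 3 (SE 0.45). Cdk6 stood at 6.1, 0 and 1.95 against 4.37, 3.1 and 1.74 (-0.37, SE 0.53), the inhibitor gene Cdkn1b at 3.78, 0 and 2.51 against 4.37, 10.3 and 1.99 (-0.02, SE 0.54; 0.31 with 3 tumours, SE 0.65), and Tfdp2, the dimer partner of E2F, at 3.49, 0 and 2.23 against 3.5, 0 and 0.497 (-0.68, SE 0.65). Their standard errors leave differences of this size undecided at this depth. The inhibitor genes Cdkn2a and Cdkn2b were at 0 counts in both sets.

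Hedgehog receptors and targets took 27.5, 76.2 and 28.9 per 10000 in the S sets and 29.7, 15.5 and 31.1 in the M sets, with 5 of 14 tested and 0 called. The co-receptor gene Gas1 had 13, 0 and 7 counts in the S sets and 11, 3 and 17 in the M sets, or 1.89, 0 and 1.95 against 4.81, 3.1 and 4.23 per 10000. These levels did not overlap, though the 0 of tumour 2 comes from an S-set sum of 656 counts, too few to read such a gene. The log2 difference of 1.23 in tumours 1 and 3 did not pass (SE 0.55, edgeR adjusted p = 0.9156). Gas1 stood at 0.541, 0 and 0.147 in barcodes with 0 of both selecting lists. The target Gli1 differed by -0.38 (SE 0.88), Mycn, a MYC family target of the pathway, by -0.33 (SE 0.49), and the Wnt antagonist gene Sfrp1 by 0.17 (SE 0.26), in tumours 1 and 3; with 3 tumours Sfrp1 differed by -0.09 (SE 0.65).

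No granule neuron gene passed the test between the sets, and both sets held less of these mRNAs than barcodes with 0 selecting counts. The differentiation list took 158, 122 and 186 per 10000 in the S sets and 195, 93.0 and 150 in the M sets, beside 281, 257 and 268 with 0 of both lists and 145, 186 and 140 with both. The direction between the sets differed, with the M set higher in tumour 1 and the S set higher in tumours 2 and 3. Of 56 genes 35 were tested and 0 called, with a median log2 difference of 0.03 with 3 tumours and -0.01 without tumour 2. The differentiation factor gene Neurod1 stood at 9.59, 15.2 and 21.4 per 10000 in the S sets, 13.5, 7.23 and 18.6 in the M sets and 27.6, 24.3 and 38.5 with 0 of both lists. The tubulin gene Tuba1a differed by 0.04 (SE 0.22). Progenitor factors took 147, 61.0 and 117 against 148, 73.4 and 108, with 15 of 26 tested and 0 called, and Nfib, one of these factors, differed by -0.01 (SE 0.20, edgeR adjusted p = 0.9958).

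**Figure D5:**
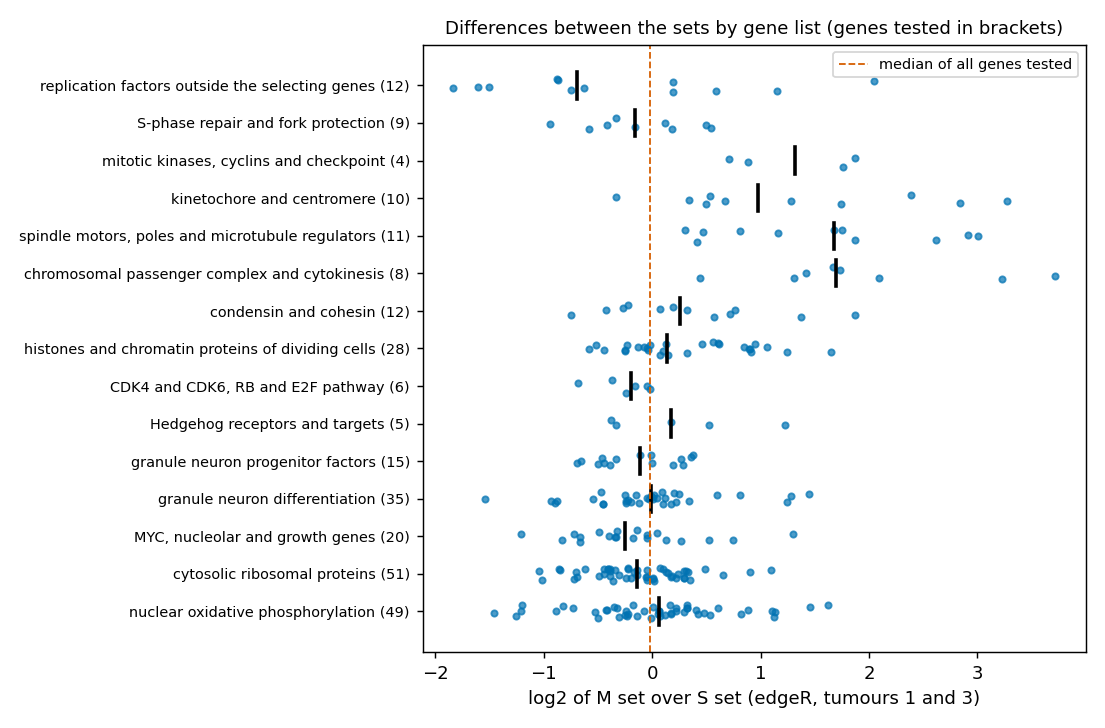
Log2 difference of M set over S set from edgeR in tumours 1 and 3 (x axis) for each tested gene of 15 lists (y axis, number tested in brackets); black bars are list medians and the dashed line the median of all genes tested, -0.02. The spindle and cytokinesis lists have medians of 1.68 and 1.70 and the replication factors -0.69, while the CDK4 and CDK6 list lies at -0.20.

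No gene of the growth and housekeeping lists was called. Of 20 MYC, nucleolar and growth genes tested 0 were called; the S set was higher in both tumours 1 and 3 for 11, or 55%, against 25.7% of all genes tested. The list took 98.8, 15.2 and 94.6 per 10000 in the S sets and 89.1, 66.1 and 84.5 in the M sets, and the nucleolar gene Ncl differed by -0.05 in tumours 1 and 3 (SE 0.24) and by 0.23 with 3 tumours (SE 0.68). Of 51 cytosolic ribosomal protein genes and 53 nuclear oxidative phosphorylation genes 0 were called, and Rps19 and Cox6a1, the most counted of each, differed by -0.44 (SE 0.32) and 0.05 (SE 0.30) in tumours 1 and 3. Of 4 p53 and cell death genes tested 0 were called, with Trp53 at 0.27 (SE 0.63). The nuclear RNA Malat1 took 496, 976 and 543 per 10000 in the S sets and 376, 615 and 471 in the M sets. It was lower in the M set of each tumour, but its fitted log2 difference depended on tumour 2 and on the scaling. That difference was 0.29 with 3 tumours (SE 0.97, edgeR adjusted p = 0.9982) and -0.30 in tumours 1 and 3 (SE 0.09, adjusted p = 0.2084). When the 3 tumours were scaled by library size only, it was negative too.

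The promoter letters were also counted over the lists outside the selecting genes. Of 109 promoters of 99 matched genes of the 4 mitosis lists, 58.7% held the CHR letters, 7.34% the E2F letters and 66.1% CCAAT. Of 56 promoters of 47 matched replication factors, 21.4% held CHR and 26.8% E2F, and of 65 promoters of 40 matched granule neuron genes, 13.8% and 1.54%. Of the 5 called genes with a promoter, Casc5, Kif20b, Ckap2l and Arhgap11a held CHR and Arl6ip1 did not. Among all 2003 promoters of the genes tested the shares were 13.8% and 5.29%.

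Counts of other cell types lay in both sets. Astrocyte markers took 36.2, 30.5 and 13.9 per 10000 in the S sets and 12.7, 64.1 and 38.3 in the M sets, microglia and macrophage markers 6.1, 0 and 4.18 against 3.5, 59.9 and 15.2, and endothelial and mural markers 0.436, 0 and 0.557 against 0.437, 28.9 and 5.47. Neutrophil markers were at 0 in both sets. By a call of at least 3 counts from at least 2 markers, 6, 0 and 2 S-set cells and 3, 2 and 4 M-set cells were of another type. With those cells left out 2 genes were called higher in the M set with 3 tumours and 9 in tumours 1 and 3, and Casc5 differed by 3.34 (edgeR adjusted p = 0.002777). The part of these cells in single list levels was not tested.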

How the data were processed

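Raw counts of unique molecular identifiers per gene and barcode were deposited by the authors for 3 treated tumours; no normalisation is recorded. STAR, Cell Ranger and the build GRCh38 are named, without versions or roles, in the submitters' processing notes; 85.84% of 19744 symbols matched mouse names, and no coordinates were taken from the tables. Total counts were 1150463, 248617 and 1324350 in tumours 1, 2 and 3. The members and gene lists were chosen with earlier results of these data known.

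Set sums without the 30 selecting genes held 68805, 656 and 35928 (S) and 22888, 9678 and 40220 counts (M). They were fitted in edgeR 4.0.16 (R 4.3.3; robust quasi-likelihood, TMM factors, tumour block, at least 20 counts over the 6 sums, Benjamini-Hochberg). The TMM factor of tumour 2's S sum was 3.935, beside 0.7282 to 0.7758 for the others. Both sets come from the same tumours, which sets the block; same-tumour deviations correlated at 0.11, 0.06 and 0.06. Levels per 10000 are sums over sums with the selecting genes left out, except for the selecting genes themselves, and values per 10000 of different genes are not compared. Promoters came from a RefSeq table. The fit was tested on simulated data, drawn with less spread than these data and without tumour differences. That test therefore does not measure its error here.

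Genes were named by a rule: called genes, up to 12 in each direction; up to 5 called and 2 uncalled genes of most counts per list; and every tested CDK and Hedgehog gene, with some items not reported here. Pbk, Sgol2, Cenpa, Cenpc1, Ckap2, Ckap5, Kif15, Tacc3, Cdca2, Incenp, Birc5, Esco2, H2afx, Atad5, Chaf1a, Cdca7, Pola1, Rgs5 and Spp1 were added after values were seen. Alternatives used DESeq2 1.42.0 and limma-voom 3.58.1, other scalings, filters, depth, doublet (Scrublet in scanpy 1.11.5) and cell-type settings, and each tumour left out.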

Additional observations from a re-analysis of the deposited data

How the results depend on the processing

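The count of genes higher in the M set was 1. It was 7 with limma-voom, 7 with library size only, 0 with no low-count filter, 2 with filterByExpr, 0 after thinning to 200 counts, 0 at most 5% mitochondrial, 3 at 3 or more selecting counts (where tumour 2 has no S set) and 2 without other cell types. With 1 tumour left out it ranged from 0 (without tumour 1 or 3) to 6 (without tumour 2). Without the replicate block it was 1, the pericyte gene Rgs5 in place of Casc5. In tumours 1 and 3 alone, settings chosen after seeing the data gave 0 with DESeq2, 12 with limma-voom, 4 with library size only, 4 without the block, 6 thinned, 9 without other cell types, 7 without doublets and 3 at 3 or more selecting counts. The count higher in the S set was 0, but 1 with library size only and 1 with limma-voom in tumours 1 and 3.

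Of 798 values of 57 named genes under other settings, 721 kept direction and side of the threshold, 6 lost the call, 22 gained it and 49, of 21 genes, reversed; the cause was not tested. Log2 differences of M over S whose sign was opposite to that with 3 tumours follow; with 3 tumours Ccnd1 was at 0.17, Sfrp1 at -0.09, Ncl at 0.23 and Malat1 at 0.29. After thinning they were Smc1a 0.22, Rfc1 0.02, Lig1 0.18, Ccnd1 -0.31, Cdk4 0.62, Cdk6 0.04, Mycn 1.04, Sfrp1 0.16, Neurod1 -0.34, Tuba1a -0.23, Nfib 0.20 and Trp53 -0.48. At 3 or more selecting counts they were Tubb5 -0.03, Ccnd1 -0.04, Sfrp1 0.15, Ncl -0.26 and Malat1 -0.20. At most 5% mitochondrial gave Cdk6 0.32, Mycn 0.06, Ncl -0.22 and Rps19 0.21. Other cell types removed gave Cdk4 0.02 and Sfrp1 0.05. DESeq2 gave Smc1a 0.03 and Nfib 0.05, limma-voom Smc1a 0.14 and Rps19 0.22, median-ratio factors Nfib 0.06, library size only Malat1 -0.41 and Cox6a1 -0.00, and no replicate block Rps19 0.02. With 1 tumour left out, values ranged over -0.43 to 0.99 for Smc1a, -1.61 to 0.07 for Chaf1a, -0.09 to 1.23 for Usp1, -0.05 to 0.90 for Ccnd1, -0.22 to 0.49 for Cdk4, -0.37 to 0.10 for Cdk6, -0.02 to 1.14 for Cdkn1b, -0.68 to 0.03 for Tfdp2, -0.33 to 0.57 for Mycn, -0.61 to 0.17 for Sfrp1, -0.19 to 0.13 for Nfib, -0.05 to 1.08 for Ncl, -0.01 to 0.27 for Trp53, -0.30 to 0.55 for Malat1 and -0.44 to 0.40 for Rps19.

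Depth limits what can be called: 34 of 119 mitosis genes and 25 of 82 replication and repair genes had 20 counts, and tumour 2 adds 2 S-set cells. Casc5 kept its direction in the 16 planned settings.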

Other observations

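The deepest M-set barcodes of tumours 2 and 3 carried vascular mRNA. That of tumour 2 held 3172 counts, 32.5% of its set, with 3 mitosis counts and 26 counts of endothelial and mural markers. That of tumour 3 held 2071 counts, 5.08% of its set, with 6 mitosis counts and 21 such marker counts. The deepest S-set barcode of tumour 1 held 1487 counts, with 3 S-phase counts and 59 counts of astrocyte markers. With the deepest barcode of tumour 2 left out, 1 gene was called higher in the M set, as before.

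Single barcodes also carried many counts of these 2 genes. The pericyte gene Rgs5 had 0, 11 and 9 counts in the M sets of tumours 1, 2 and 3 and 1, 0 and 0 in the S sets, from 4 M-set cells of which 1 held 10. The secreted phosphoprotein gene Spp1, expressed by macrophages, had 0, 6 and 39 counts in the M sets and 3, 0 and 4 in the S sets, and 38 of its M-set counts lay in 1 cell. Neither passed the test with 3 tumours (edgeR adjusted p = 0.9611 each).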
